A study of Mus musculus with 6 samples.

Results

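ABC transporters are membrane proteins that use ATP to move lipids, drugs, bile salts, peptides and metal cofactors across membranes. The 48 genes described here are the mouse family members whose array row named 1 gene with a symbol of the form Abca to Abcg plus a number, of 19938 genes measured in all. They comprise 16 ABCA, 9 ABCB, 10 ABCC, 3 ABCD, 1 ABCE, 3 ABCF and 6 ABCG genes. RefSeq lists 50 symbols of this form, and the other 2 were not analysed here. Labelled RNA of mouse embryonic intestine, of a mixed strain that is partly C57Bl/6, at day E14.5, before villi form, was measured on Affymetrix Mouse Gene 1.0 ST arrays. The Klf5-deleted group (genotype Klf5D/D) and the control group (Klf5wt/wtShhEGFP/Cre+, wild-type for Klf5 and carrying the ShhEGFP/Cre allele) had 3 arrays each. Every array held a pool of 2 intestines sampled about 1.5 cm anterior to the cecum. The labels of the Klf5-deleted group do not name the Cre allele, the 2 groups share the tissue, the strain description and the age, and Shh is a gene of the gut epithelium. KLF5 is a Krüppel-like transcription factor made in epithelia.

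A full ABC transporter has a pair of membrane domains and a pair of ATP-binding cassettes, and the shorter members carry a single set and work as dimers. In the intestine the family pumps drugs and conjugates out through the apical membrane (Abcb1a, Abcc2, Abcg2), returns plant sterols and cholesterol to the lumen (Abcg5 with Abcg8) and loads cholesterol onto high-density lipoprotein at the basolateral side (Abca1). The ABCD genes serve peroxisomes and lysosomes, several ABCB genes serve mitochondria, and the ABCE and ABCF proteins have no membrane domain and act on ribosomes. All values below are log2 signals from RMA, and a difference of 1 is a change of 2-fold.

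Some facts of the arrays touch every result. Klf5 read 10.24, 10.49 and 10.34 in the Klf5-deleted arrays, against 11.55, 11.74 and 11.77 in the controls. The pools also differed in sex: Xist, made from the inactive X chromosome of females, read between 5.89 and 6.47 in Klf5-deleted pools, against 11.93 to 12.61 in control pools. The male share of each pool, estimated from the signals of the Y-linked Uty, Kdm5d and Eif2s3y on a scale with 0% for the array lowest in them and 100% for the average Klf5-deleted array, was 103%, 102% and 95% in the Klf5-deleted pools and 0%, 47.1% and 40.8% in the controls. No control pool reached the male share of a Klf5-deleted pool, so genotype and sex can be only partly told apart. Of 26 pan-epithelial marker genes, 25 fell and 0 rose, against 8.58% of all genes called lower and 8.95% called higher. Their median log2 fold change was −0.88, with a range of −1.85 to 0.15. The defining markers Epcam and Cdh1 remained well measured in both groups (11.20 and 11.00 on average in the Klf5-deleted arrays, 11.80 and 11.94 in the controls). In such bulk tissue, fewer epithelial cells and less RNA per epithelial cell cannot be told apart.

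The drug and conjugate pumps Abcb1a and Abcc2 fell more than 3-fold in the Klf5-deleted intestine, and none of the other 46 of these 48 genes changed by as much as 2-fold. Of the 48 genes, 11 passed a Benjamini-Hochberg adjusted p of 0.05 with limma: 4 fell (Abcb1a, Abcc2, Abcb1b and Abcb8) and 7 rose (Abcd2, Abca5, Abca4, Abca1, Abca8b, Abcc5 and Abcg2). The 11 genes are 22.9% of the family, against 17.5% of all genes called in either direction, 8.58% called lower and 8.95% called higher. When each pool's male share entered the fit as a covariate, the median SE over all genes was 2.63 times as large. In that fit 0 of the 48 genes passed limma's adjusted test, against 0.416% of all genes, and 12 had an unadjusted p under 0.05, against 2882 of all 19938 genes. At 2-fold or more the family had 2 called genes, against 1.22% of all genes. The arrays of the 2 groups did not overlap for 21 of the 48 genes, 9 of them lower and 12 higher in the Klf5-deleted arrays, against 36% of all genes. The median log2 fold change was 0.0047 over the family and 0.02 over all genes, and 26 members differed by less than 0.1. For comparison, 24 of 332 solute carrier genes of the Slc families rose and 57 fell, with a median of 0.01. With 3 arrays against 3, the exact two-sided permutation test of a single gene cannot go below p = 0.1, the value it gave for each of the 11 genes.

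**Figure D1:**
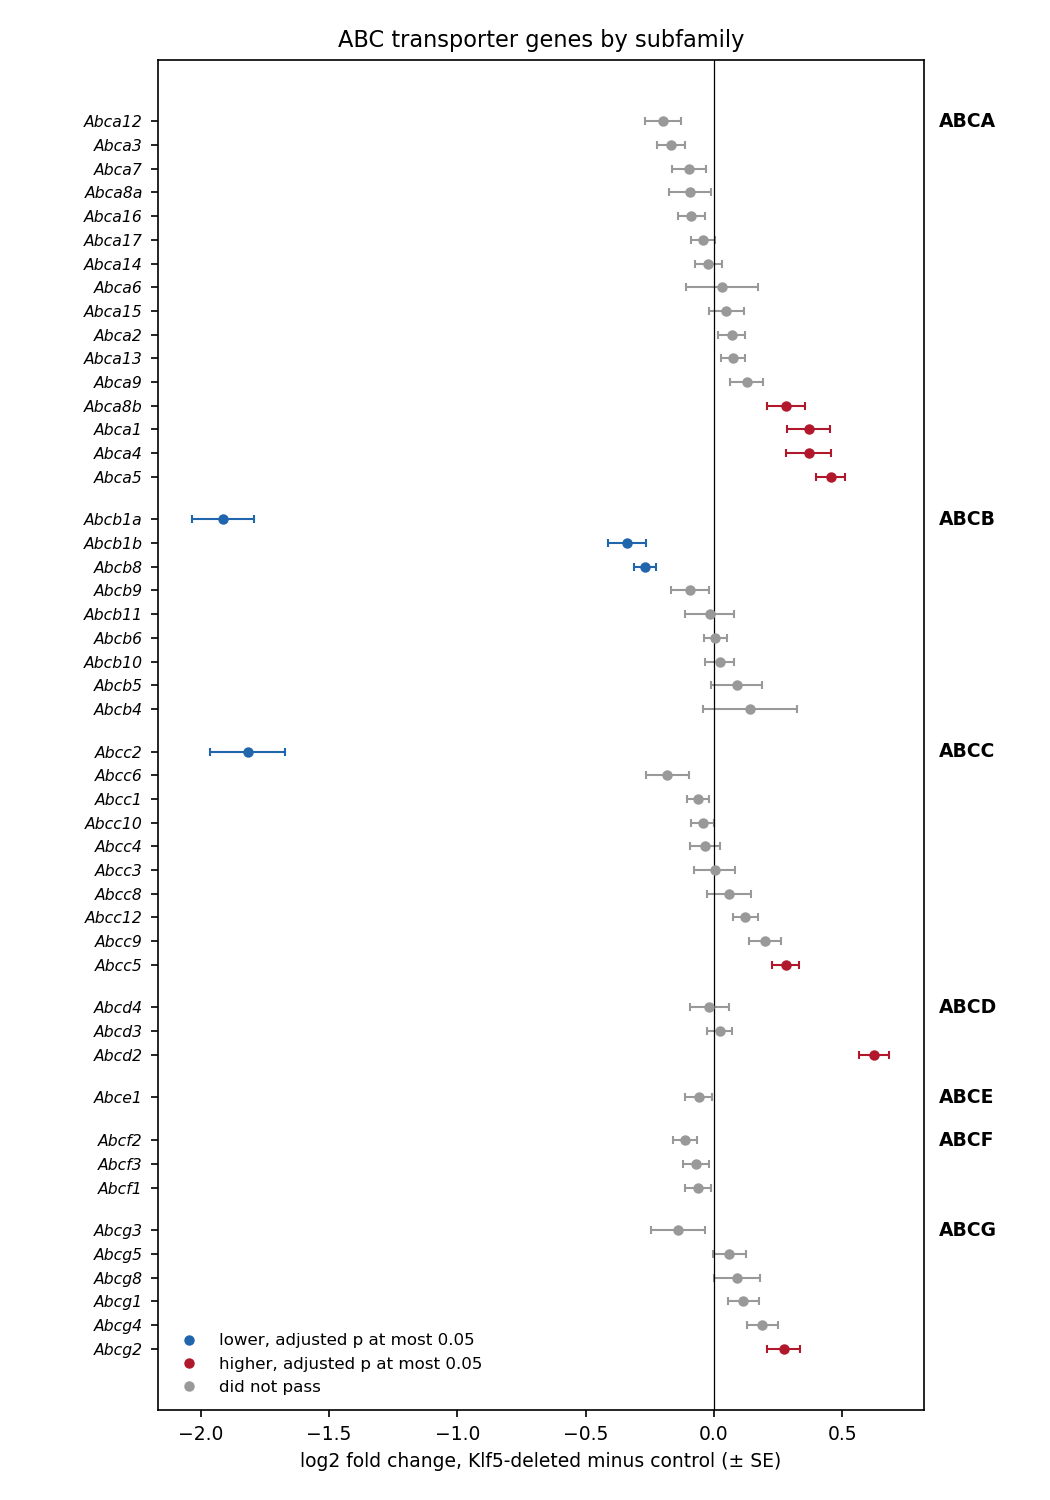
Log2 fold change of each of the 48 ABC transporter genes (Klf5-deleted minus control, 3 arrays per group), grouped by subfamily; bars are ± SE of limma's moderated variance and colours give the call. Abcb1a and Abcc2 lie near −1.9 and −1.8, and the other called genes lie between −0.34 and 0.63.

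The starts of 4 genes are printed because they hold the largest falls (Abcb1a, Abcc2), the neighbouring paralog of Abcb1a (Abcb1b) and the rise with the largest size among members that have a promoter in the table (Abca5). Each is the RefSeq window of 250 bases before and 50 after the annotated start, build GRCm38.p6, written 5′ to 3′ on the strand of the gene. Capitals mark the letters CACCC, the box bound by Krüppel-like factors, and GGGCGG, the GC box, on either strand.
Abcb1a (chr5:8566841-8567140, plus strand): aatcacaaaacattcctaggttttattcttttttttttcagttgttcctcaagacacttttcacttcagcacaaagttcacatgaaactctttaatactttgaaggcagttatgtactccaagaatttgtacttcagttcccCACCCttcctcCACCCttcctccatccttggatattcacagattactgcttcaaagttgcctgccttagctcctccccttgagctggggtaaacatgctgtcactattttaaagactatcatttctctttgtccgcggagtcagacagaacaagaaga
Abcb1b (chr5:8797897-8798196, plus strand): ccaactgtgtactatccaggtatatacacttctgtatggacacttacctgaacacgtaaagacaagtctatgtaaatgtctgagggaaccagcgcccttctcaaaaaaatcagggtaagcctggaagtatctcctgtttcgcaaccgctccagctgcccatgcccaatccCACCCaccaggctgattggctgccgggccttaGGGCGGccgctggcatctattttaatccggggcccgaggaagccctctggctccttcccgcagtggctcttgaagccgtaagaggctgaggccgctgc
Abcc2 (chr19:43782058-43782357, plus strand): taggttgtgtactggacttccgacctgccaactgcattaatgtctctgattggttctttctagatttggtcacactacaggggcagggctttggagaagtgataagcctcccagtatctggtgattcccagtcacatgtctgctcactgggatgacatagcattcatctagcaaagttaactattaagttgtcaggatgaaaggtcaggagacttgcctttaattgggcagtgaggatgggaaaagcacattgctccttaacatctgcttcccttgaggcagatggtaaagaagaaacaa
Abca5 (chr11:110337667-110337966, minus strand): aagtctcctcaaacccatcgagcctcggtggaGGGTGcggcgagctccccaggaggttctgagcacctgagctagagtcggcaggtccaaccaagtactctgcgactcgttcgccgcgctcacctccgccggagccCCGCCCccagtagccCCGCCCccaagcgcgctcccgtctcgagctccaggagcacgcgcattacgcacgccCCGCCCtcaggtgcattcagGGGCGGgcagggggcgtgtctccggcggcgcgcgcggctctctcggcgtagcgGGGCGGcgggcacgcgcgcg

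The Abcb1a window holds CACCC at 2 places, with first bases 108 and 97 bases before the start, and no GC box. The Abcb1b window holds CACCC at 80 and a GC box at 48 bases before the start. The Abcc2 window holds neither motif. The Abca5 window holds 1 CACCC on the opposite strand, 218 bases before the start, and 5 GC boxes. Of 32851 windows of this length in the table, 57.5% hold CACCC and 35.7% hold GGGCGG, so such matches are common. The table has 45 windows for 38 of the ABC genes, of which 31 (68.9%) hold CACCC and 21 (46.7%) hold GGGCGG. The letters CAAAGTCCA, a motif of the HNF4 receptors, occurred in 0.475% of all windows and, within the family, in a window of Abcd3 alone. A match describes these letters and not binding, and KLF5 binding was not measured.

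Efflux of drugs, conjugates and bile salts was covered by 11 genes, of which 3 fell and 2 rose. Over all genes, 8.58% were called lower and 8.95% higher. Abcb1a encodes the P-glycoprotein of the intestinal apical membrane, which pumps drugs back into the lumen. It read 7.56, 7.98 and 7.58 in the Klf5-deleted arrays, against 9.74, 9.64 and 9.48 in the controls. The highest Klf5-deleted array lay 1.51 log2 units below the lowest control. The level fell to 26.6% of the control level (log2 fold change −1.91, SE 0.12, adjusted p = 9.62e-05 with limma on 3 arrays per group). Abcb1a was number 51 among all genes in order of the size of the fall.

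Abcb1b, the neighbour and close paralog of Abcb1a, read 6.03, 6.19 and 5.92 in the Klf5-deleted arrays, against 6.34, 6.38 and 6.44 in the controls. The groups did not overlap, but the gap was small. It fell by 0.34 (SE 0.07, adjusted p = 0.0184 with limma), and it did not pass when control replicate 2 (−0.34, adjusted p = 0.0601) or 3 (−0.31, adjusted p = 0.0695) was left out. Near-identical stretches of Abcb1a and Abcb1b can share probes, so the split of signal between them is uncertain. The Abcb1b row was dim, at percentile 17.1 of all genes by mean signal, where arrays can understate folds. The part of shared probes or low signal in the Abcb1b value was not tested. The third gene of this cluster, Abcb4, which flips phosphatidylcholine into bile in liver, was at 0.14 (SE 0.18, adjusted p = 0.684), with Klf5-deleted values from 6.59 to 7.41 around control values from 6.80 to 6.99.

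Abcc2 encodes MRP2, the apical pump for glucuronide, sulphate and glutathione conjugates. It read 7.02, 7.31 and 7.04 in the Klf5-deleted arrays, against 9.14, 9.07 and 8.61 in the controls. Control replicate 3 was the lowest control, and it stood 1.30 log2 units above the highest Klf5-deleted array. The level fell to 28.4% of the control level (log2 fold change −1.82, SE 0.15, adjusted p = 0.000264 with limma). Abcc2 was number 64 among all genes by size of fall.

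The 2 efflux genes that rose changed by less than 1.5-fold. Abcc5, a pump for cyclic nucleotides and other organic anions, read 9.59, 9.56 and 9.60 in the Klf5-deleted arrays, against 9.38, 9.30 and 9.22 in the controls. It rose by 0.28 (SE 0.05, adjusted p = 0.0105 with limma), and the groups did not overlap. Abcg2, the breast cancer resistance protein, also an apical efflux pump of enterocytes, read 10.45, 10.22 and 10.35 in the Klf5-deleted arrays, against 10.05, 10.05 and 10.09 in the controls. It rose by 0.27 (SE 0.06, adjusted p = 0.0255 with limma), and the call held in 1 of the 6 fits that leave out an array, with adjusted p up to 0.0866 in the others. Of the apical pumps, Abcb1a and Abcc2 fell and Abcg2 rose.

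The other efflux genes did not pass. Abcc3 (MRP3), a basolateral conjugate pump, was at 0.00 (SE 0.08), Abcc4, an exporter of cyclic nucleotides, at −0.03 (SE 0.06) and Abcc1 (MRP1) at −0.06 (SE 0.04). Abcc10 was at −0.04 (SE 0.05), and Abcc6, whose loss causes tissue calcification, was at −0.18 (SE 0.08, adjusted p = 0.195). Abcb11, the bile salt export pump of liver, was dim (percentile 11.6) and at −0.02 (SE 0.10).

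**Figure D2:**
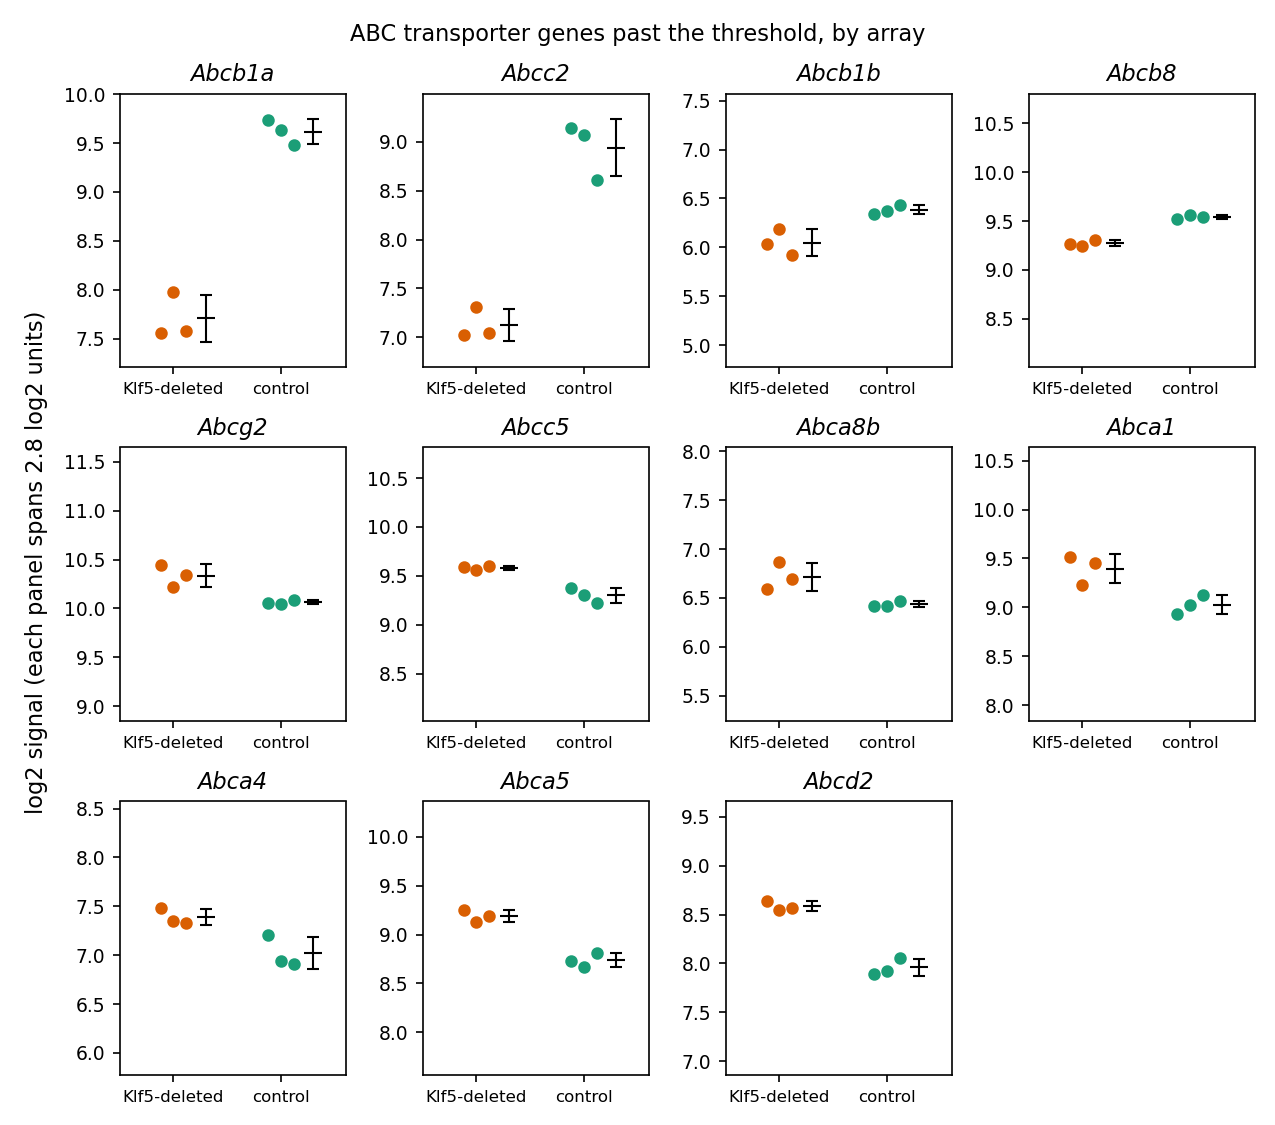
Log2 signal of the 11 ABC genes past an adjusted p of 0.05 in each array (orange, 3 Klf5-deleted arrays; green, 3 control arrays), with the group mean ± SD beside the points; all panels span the same range of log2 units. The groups do not overlap in any of the 11 panels, and the gap is widest for Abcb1a and Abcc2.

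Sterol and phospholipid transport was covered by 17 genes of the ABCA, ABCB and ABCG subfamilies. Of the 17, 4 rose and 0 fell, against 8.95% of all genes called higher and 8.58% called lower, with a median of 0.09. At an unadjusted p under 0.05 there were 7 of the 17 by limma, against 30.6% of all genes. Abca5, a transporter of endosomes and lysosomes, read 9.26, 9.13 and 9.19 in the Klf5-deleted arrays, against 8.73, 8.67 and 8.81 in the controls. The rise was 1.37-fold, or 0.45 in log2 units (SE 0.06, adjusted p = 0.00203 with limma). Every Klf5-deleted array lay above every control.

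Abca1, which passes cholesterol and phospholipid to apolipoprotein A-I, read 9.51, 9.23 and 9.45 in the Klf5-deleted arrays, against 8.93, 9.02 and 9.13 in the controls. The rise was 1.29-fold, or 0.37 in log2 units (SE 0.09, adjusted p = 0.0243 with limma). Klf5-deleted replicate 2 lay close to the highest control, and it did not pass in 4 of the 6 fits with an array removed (adjusted p up to 0.0808). Abca4, the retinoid flippase known from photoreceptors, read 7.49, 7.35 and 7.33 in the Klf5-deleted arrays, against 7.21, 6.94 and 6.91 in the controls. The rise was 1.29-fold, or 0.37 in log2 units (SE 0.09, adjusted p = 0.0265 with limma), and the call was lost in 5 of the 6 such fits (adjusted p up to 0.0951).

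Abca8b stands in a row of neighbouring genes on chromosome 11 with Abca8a, Abca9, Abca6 and Abca5. It read 6.59, 6.87 and 6.70 in the Klf5-deleted arrays, against 6.42, 6.42 and 6.47 in the controls. It rose by 0.28 (SE 0.07, adjusted p = 0.0376 with limma), did not pass in 5 of the 6 fits with an array removed (adjusted p up to 0.113), and is a close paralog of Abca8a, with which it can share probes. Within this row of genes Abca8b and Abca5 rose, whereas Abca8a (−0.09, SE 0.08), Abca9 (0.13, SE 0.06) and Abca6 (0.03, SE 0.14) did not pass. Abca8b, Abca8a and Abca6 were dim, at percentiles 21.5, 9.38 and 12.9 of all genes by mean signal.

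The sterol pair Abcg5 and Abcg8, short members that work as a heterodimer and lie head to head in the genome, did not pass. Abcg5 read 7.44, 7.58 and 7.53 in the Klf5-deleted arrays, against 7.40, 7.57 and 7.41 in the controls (0.06, SE 0.06, adjusted p = 0.607). Abcg8 read 6.35, 6.61 and 6.39 in the Klf5-deleted arrays, against 6.49, 6.34 and 6.25 in the controls (0.09, SE 0.09, adjusted p = 0.576). The Abcg8 row was dim, at percentile 19.3 of all genes by mean signal. The values of the groups overlapped for both genes, and the RefSeq start windows of the pair share 209 bases. Abcg1, a cholesterol exporter of many cell types, was at 0.11 (SE 0.06), and its relative Abcg4 was at 0.19 (SE 0.06, adjusted p = 0.0733), with a call gained without control replicate 1 (0.25, adjusted p = 0.0303).

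Of the remaining lipid transporters, Abca3, known for loading surfactant lipid in lung, was at −0.17 (SE 0.06, adjusted p = 0.0856) and Abca12, the ceramide transporter of skin, at −0.20 (SE 0.07, adjusted p = 0.103). The groups did not overlap for Abca3 and Abca12, but neither passed. Abca2 was at 0.07 (SE 0.05), Abca7 at −0.10 (SE 0.07) and Abca13 at 0.07 (SE 0.05). Abca12 and Abca13 were dim, at percentiles 16.3 and 11.5 of all genes by mean signal.

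Short transporters of organelles were covered by 7 genes, of which 1 rose and 1 fell, against 8.95% and 8.58% of all genes. Abcd2, which brings very long chain fatty acyl-CoA into peroxisomes, read 8.64, 8.55 and 8.56 in the Klf5-deleted arrays, against 7.89, 7.92 and 8.06 in the controls. The rise was 1.54-fold, or 0.63 in log2 units (SE 0.06, adjusted p = 0.000512 with limma), with the groups well apart, and was the largest among the 48 ABC genes. The other ABCD genes measured did not pass: Abcd3, also of peroxisomes, was at 0.02 (SE 0.05) and Abcd4, of lysosomal cobalamin transport, at −0.02 (SE 0.08). Of 16 peroxisome genes, 1 rose (Hsd17b4, a beta-oxidation enzyme, 0.18, SE 0.05) and 0 fell, with a median of 0.01.

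Abcb8, a transporter of the inner mitochondrial membrane, read 9.27, 9.25 and 9.31 in the Klf5-deleted arrays, against 9.52, 9.57 and 9.54 in the controls. It fell by 0.27 (SE 0.04, adjusted p = 0.00588 with limma), a small change with little spread in either group. The mitochondrial Abcb10, which is induced with haem synthesis in red cell precursors, was at 0.02 (SE 0.06), Abcb6 at 0.01 (SE 0.04) and the lysosomal peptide transporter Abcb9 at −0.09 (SE 0.08). Of 14 genes of haem and iron-sulphur synthesis, 1 fell (Nfs1, the cysteine desulphurase that supplies sulphur, −0.52, SE 0.06) and 0 rose. Over all genes, 8.58% were called lower and 8.95% higher.

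The sulphonylurea receptor genes Abcc8 and Abcc9, which gate ATP-sensitive potassium channels and are not known as pumps, did not pass. Abcc9 read 11.15, 11.03 and 11.08 in the Klf5-deleted arrays, against 10.95, 10.93 and 10.77 in the controls (0.20, SE 0.06, adjusted p = 0.0682), and the groups did not overlap. Its pore partner Kcnj8 was at 0.19 (SE 0.10, adjusted p = 0.245). Abcc9 is known from smooth muscle and pericytes. Of 15 marker genes of these cells, 3 rose and 0 fell, against 8.95% of all genes called higher and 8.58% called lower. Their log2 fold changes ran from −0.27 to 0.39. An unadjusted p under 0.05 by limma was found for 8 of the 15, against 30.6% of all genes. The summed linear signals were 59173 to 61532 in Klf5-deleted arrays, against 56871 to 59643 in control arrays. The part of this in the Abcc9 value was not tested. Abcc8 was at 0.06 (SE 0.09) and its partner Kcnj11 at 0.01 (SE 0.06).

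The ribosome proteins of the family did not pass. Abce1, the factor that splits ribosomes after termination, read 12.22, 12.23 and 12.27 in the Klf5-deleted arrays, against 12.21, 12.33 and 12.36 in the controls (−0.06, SE 0.05, adjusted p = 0.529). Abcf1, Abcf2 and Abcf3 were at −0.06, −0.11 and −0.07 (SE 0.05 each). By limma 0 of these 4 genes passed, and 1 (Abcf2) had an unadjusted p under 0.05, against 17.5% and 30.6% of all genes. The genes placed in no role group also did not pass: Abca14, Abca15, Abca16 and Abca17 lay between −0.09 and 0.05, Abcb5 was at 0.09, Abcc12 at 0.12 and Abcg3 at −0.14. Abcb5 was the one member with more than 1 array row. Of the 48 genes, 13 lay below percentile 25 of all genes by mean signal, and 2 of the 13, Abca8b and Abcb1b, were called. Among all genes, 152 of the 4984 below that percentile were called.

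Many receptors, sensors and lipid genes that work with the family fell. Of 17 nuclear receptors and sensors known to regulate ABC genes, 10 fell and 0 rose, with a median of −0.38. Over all genes, 8.58% were called lower and 8.95% higher, and the median of the pan-epithelial markers was −0.88. Nr1i2 (PXR), the drug sensor known to induce Abcb1a and Abcc2, read 6.72, 7.11 and 6.78 in the Klf5-deleted arrays, against 9.05, 9.06 and 9.17 in the controls, and fell by 2.22 (SE 0.10, adjusted p = 3.22e-05 with limma). Nr1h4 (FXR), the bile acid receptor, fell by 1.19 (SE 0.10, adjusted p = 0.000383), and Hnf4a and Hnf4g fell by 1.97 (SE 0.08) and 1.95 (SE 0.12). Nr1h3 (LXR alpha), the sterol receptor known to induce Abca1, Abcg1, Abcg5 and Abcg8, fell by 0.49 (SE 0.08, adjusted p = 0.00536), whereas Abca1 rose and the other 3 did not pass. Nr1h3 was picked with its values in view. The part of these receptors in the ABC values was not tested.

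Of 14 genes of intestinal cholesterol handling, 8 fell and 1 rose, against 8.58% and 8.95% of all genes, with a median of −0.21. Mttp, which loads lipid onto lipoproteins, fell by 1.87 (SE 0.06), Srebf1 by 0.32 (SE 0.04) and the high-density lipoprotein receptor gene Scarb1 by 0.28 (SE 0.04), and Mylip, which marks lipoprotein receptors for breakdown, rose by 0.32 (SE 0.05). Npc1l1, the sterol uptake protein that Abcg5 and Abcg8 oppose, was at −0.10 (SE 0.09, adjusted p = 0.555), a gene picked with its values in view. Of 11 genes of the bile acid and organic anion route, 5 fell and 0 rose. Slc51a, a subunit of the basolateral bile acid exporter, fell by 1.84 (SE 0.09), Slc22a18 by 0.76 (SE 0.08), the receptor gene Nr0b2 by 0.48 (SE 0.06) and the sulphotransferase gene Sult1b1 by 0.54 (SE 0.08). Among the genes named from Mttp to Sult1b1, all but Npc1l1 had an adjusted p of 0.00555 or less.

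The family genes whose names fall outside the Abca to Abcg form included 2 further falls, of Cftr and Tap1. Cftr (Abcc7), the apical chloride channel, read 8.69, 8.90 and 9.04 in the Klf5-deleted arrays, against 9.96, 10.23 and 10.12 in the controls, and fell by 1.23 (SE 0.10, adjusted p = 0.000317 with limma). The antigen peptide transporter genes Tap1 and Tap2 were at −0.19 (SE 0.05, adjusted p = 0.035) and −0.12 (SE 0.06, adjusted p = 0.239). Of 8 genes of peptide loading, 2 fell and 0 rose, with Erap1, which trims peptides, at −0.74 (SE 0.05) and Tapbp at −0.29 (SE 0.04). The shares over all genes were 8.58% called lower and 8.95% called higher.

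**Figure D3:**
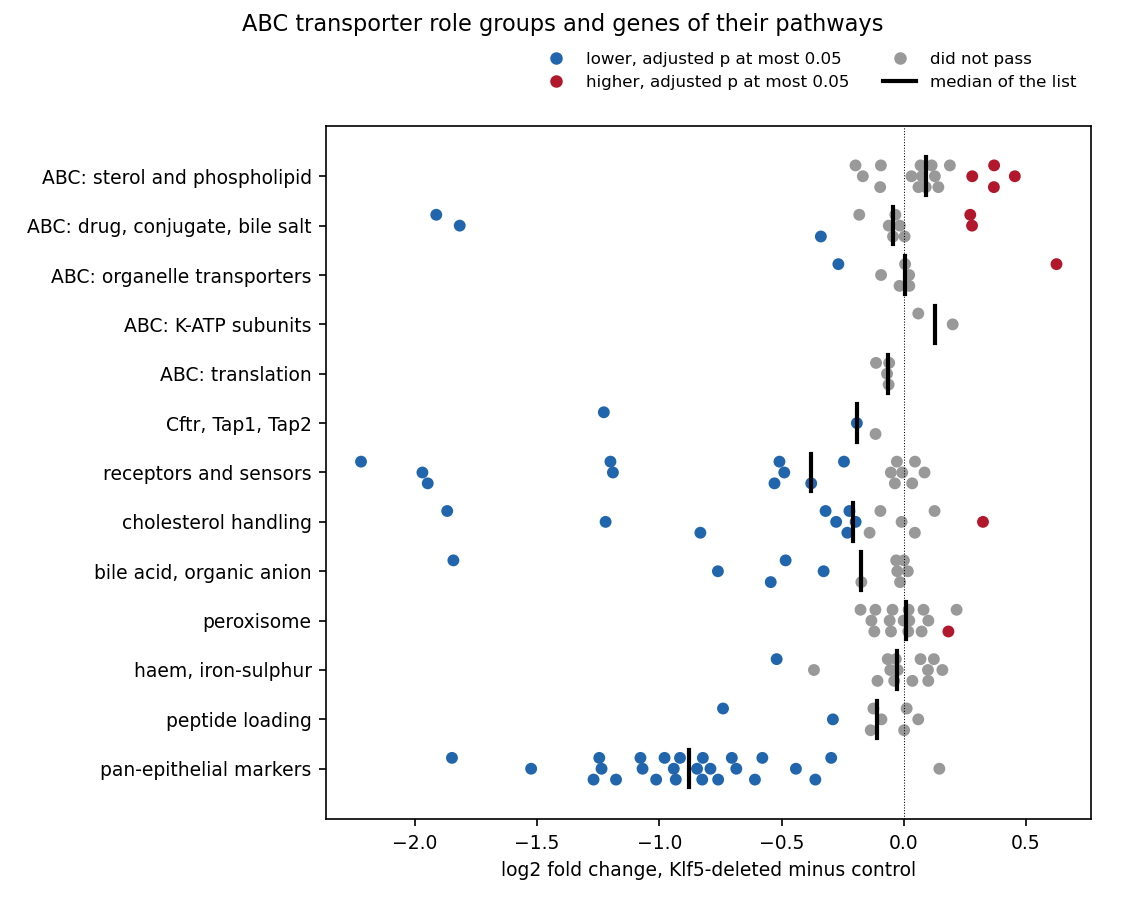
Log2 fold change (Klf5-deleted minus control) of the ABC genes by role, of genes of their pathways and of 26 pan-epithelial marker genes; each point is a gene coloured by its call and the bar is the median of the list. Falls are deepest among receptors and sensors, cholesterol handling, bile acid genes and epithelial markers, and among ABC genes for Abcb1a and Abcc2.

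By subfamily, 4 of 16 ABCA genes rose and 0 fell, 3 of 9 ABCB genes fell and 0 rose, and 1 of 10 ABCC genes rose and 1 fell. The shares over all genes were 8.95% called higher and 8.58% called lower. Among the called genes, Abca1, Abca4, Abca8b, Abcb1b and Abcg2 lost their call in some fits that leave out an array. Of 3 ABCD genes 1 rose, of 6 ABCG genes 1 rose, and by limma 0 of the ABCE and ABCF genes passed. The medians of the subfamilies lay between −0.07 and 0.10. These medians are a description with no test.

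Markers of other cells moved with the groups to different degrees. Over all genes, 8.95% were called higher, 8.58% were called lower and 30.6% had an unadjusted p under 0.05 by limma. Such an unadjusted p was found for 6 of 11 fibroblast, 9 of 9 mesothelial and 7 of 13 enteric neuron and glia genes. It was also found for 3 of 14 leukocyte, 5 of 13 endocrine and 25 of 26 pan-epithelial genes. Of 17 endothelial genes, 0 passed limma's test and 2 had an unadjusted p under 0.05, although Abcb1a and Abcg2 are also known from endothelium, with summed linear signals of 20490 to 25123 in Klf5-deleted arrays, against 21111 to 22344 in control arrays. Of 11 fibroblast genes, 2 rose and 0 fell, with sums of 33356 to 35828 in Klf5-deleted arrays, against 30550 to 32449 in control arrays. Of 9 mesothelial genes, 7 rose and 2 fell, with sums of 9653 to 12203 in Klf5-deleted arrays, against 8651 to 10212 in control arrays. Krt19 is on both the mesothelial and the pan-epithelial list. Of 26 pan-epithelial genes, the sums were 31067 to 36040 in Klf5-deleted arrays, against 56066 to 59026 in control arrays. Of 14 leukocyte genes, 2 fell and 0 rose, of 13 enteric neuron and glia genes 2 rose and 1 fell, of 13 endocrine genes 1 rose and 1 fell, and of 7 red cell genes 0 passed limma's test and 0 had an unadjusted p under 0.05. The part of these cells in the ABC values was not tested.

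Abcb1a, Abcc2, Abcb8, Abcd2, Abca5 and Abcc5 kept their call in all 6 fits that leave out an array, and the other 5 called genes lost it in at least 1. Over those fits Abcb1a lay between −2.05 and −1.84 and Abcc2 between −1.98 and −1.72. In the fit with the male share the median SE over all genes was 2.63 times as large, Abcb1a was at −1.71 (SE 0.32, adjusted p = 0.114), Abcc2 at −1.46 (SE 0.37, adjusted p = 0.19) and Abcd2 at 0.49 (SE 0.15, adjusted p = 0.244), and all 11 called genes kept their sign. Some rises moved by more than 1.5 times in it: Abca4 was at 0.77 (SE 0.17), Abcc5 at 0.44 (SE 0.12) and Abca1 at 0.18 (SE 0.22). Without control replicate 1, the control pool with a male share of 0%, Abcb1a was at −1.85 (adjusted p = 0.000953 with limma), and 5 members were higher and 4 lower. In that fit Abca1, Abca8b and Abcg2 lost their call, and Abcg4, not called with all 6 arrays, gained one. The counts over all genes in the fits that leave out an array are given at the end.

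**Figure D4:**
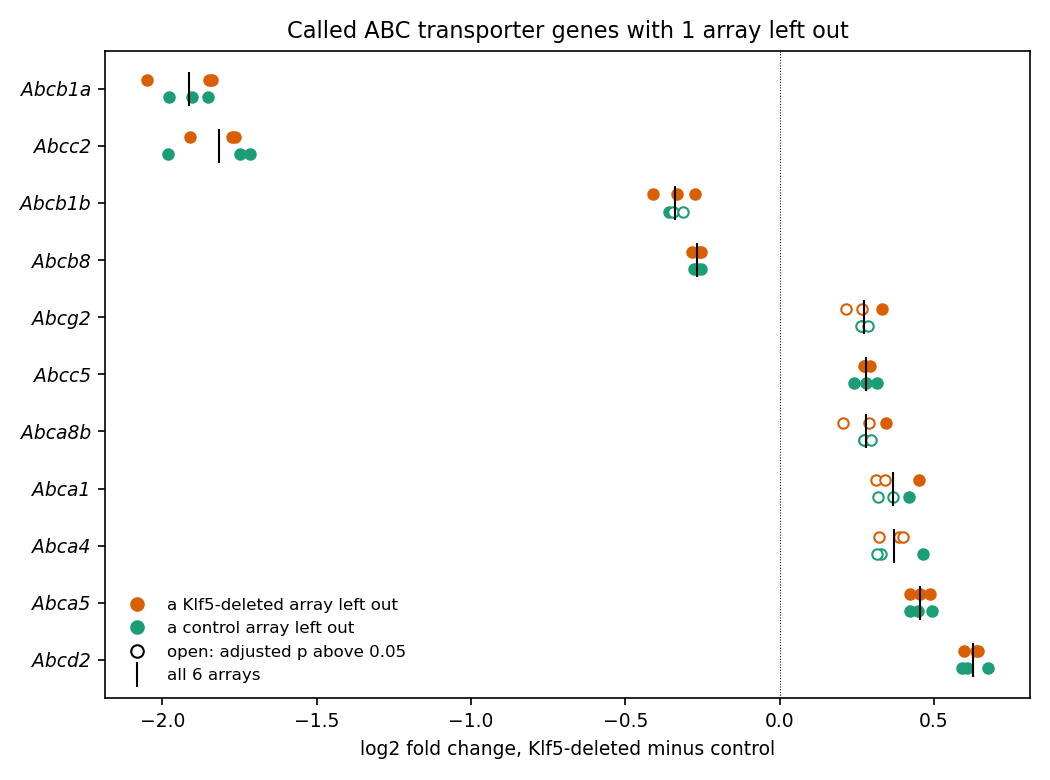
Log2 fold change (Klf5-deleted minus control) of the 11 called ABC genes with all 6 arrays (bar) and with each array left out (points, orange for a Klf5-deleted and green for a control array; open where adjusted p is above 0.05). Abcb1a, Abcc2, Abcb8, Abcc5, Abca5 and Abcd2 have only filled points, and no gene changes sign.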

How the data were processed

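The authors deposited log2 signals from RMA, and per the submitters' processing notes the software was Affymetrix Expression Console 1.1; RMA corrects background, makes array distributions alike by quantile normalization and summarises probes, so a shift common to most genes is removed. For the array's build and annotation, nothing is given in the sources used here. Values ran from 3.51 to 14.29 in 35557 rows, arrays have no read depth, and their number limits the precision. Of 21789 rows with 1 symbol, 21698 were updated by gene ID to RefSeq (GRCm38.p6), and the brightest row per gene gave 19938 genes with no filter on level. The 3 Klf5-deleted arrays were compared with the 3 controls by limma 3.58.1 in R 4.3.3 (lmFit, eBayes) with Benjamini-Hochberg adjustment over all genes at 0.05. The procedure was tested on simulated data, with independent normal noise per gene and known changes added. That simulation held no difference in sex or cell content between the groups, so it does not cover these. Arrays correlated at 0.994 to 0.997 within groups. The labels do not say whether litters were separate, so p values measure only the spread among these pools. Members, role groups and lists were chosen with earlier results of these data known. Named were members past the threshold with per-array values, their paralogs and partners, and up to 4 genes of each other list by smallest p; others are marked as picked with their values in view. Alternatives were each array left out, the replicate number as a block, quantile or median scaling, filters on low values, a variance trend, array weights, other row rules, a threshold of 0.1 and each pool's male share as a covariate. Promoter sequences are RefSeq's.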

Additional observations from a re-analysis of the deposited data

How the results depend on the processing

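In the 6 fits that leave out an array, 3 to 5 ABC genes were higher and 3 to 4 lower, against 7 and 4 with all arrays, and among all genes 868 to 1363 were higher and 1132 to 1394 lower, against 1785 and 1711. The count of higher ABC genes was 4 without Klf5-deleted replicate 1, 3 without Klf5-deleted replicate 3, 3 without control replicate 2 and 4 without control replicate 3. With the replicate number as a block, 4 ABC genes were higher (900 genes in all) and 3 lower (1108 in all). Same-numbered arrays did not deviate together (correlations of −0.14, −0.27 and −0.03 across genes), and differently numbered arrays gave −0.06 to 0.22. With 3 arrays per group, such correlations cannot show whether arrays were paired. With the male share as a covariate, 0 ABC genes were higher and 0 lower by limma's adjusted test, 12 of the 48 had an unadjusted p under 0.05, against 2882 of all 19938 genes, and among all genes 4 genes rose and 79 fell. With this covariate the median log2 fold change was 0.057 over the family (0.0047 without the covariate), 0.11 for ABCA, 0.045 for ABCB (−0.016 without it, a turn in sign within the spread between arrays), 0.069 for ABCC, 0.20 for ABCD, −0.25 for ABCE, −0.11 for ABCF and 0.15 for ABCG. With the lowest 25% of genes left out the ABCA median was 0.13, and with the lowest 50% left out the medians were 0.22 for ABCA, −0.13 for ABCB, 0.20 for ABCC and 0.19 for ABCG, since fewer genes entered. Over the fits leaving out an array the ABCA median lay between −0.018 and 0.064 and the ABCF median between −0.11 and −0.048. The other settings gave 6 to 9 higher and 3 to 5 lower ABC genes, and all 11 called genes kept their sign under every setting in which they were tested. Dim rows limit small folds: 13 of the 48 genes lay in the lowest 25%.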
